A study of Homo sapiens with 15 samples.

Results

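A set of 10 airway epithelial identity genes was followed in BEAS-2B cells: TP63, SOX2, NKX2-1, FOXA1, FOXA2, GRHL2, ELF3, EHF, OVOL1 and ESRP1. They were found by matching the Entrez gene numbers of the count table to these symbols, and all 10 were among its 28395 genes. BEAS-2B is an established, virus-immortalized line from human bronchial epithelium. The cells were kept with or without nanoplastics made from polyethylene terephthalate (PET-NPLs) at 50 µg/mL for 24 h, 15 weeks or 30 weeks, in culture medium with fetal bovine serum, and controls were unexposed cells kept for the same time. Total RNA depleted of ribosomal RNA was sequenced from 2 control and 2 exposed samples at 24 h, 2 and 2 at 15 weeks, and 3 and 4 at 30 weeks. All groups are 1 cell line with no second donor, and nothing in the labels says that the replicates were separate cultures, so p-values measure the spread between these samples, which may be technical. The labels put 24 h and 15 weeks in 1 batch and 30 weeks in another, so for the steps from either earlier time to 30 weeks, time and batch cannot be told apart.

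The airway epithelium rests on a small set of transcription factors that keep cells in their identity. TP63 and SOX2 maintain basal stem cells, NKX2-1 specifies lung from foregut, and the pioneer factors FOXA1 and FOXA2 open chromatin at lung and secretory genes. GRHL2, the ETS factors ELF3 and EHF, and the zinc finger repressor OVOL1 hold the epithelial programme and its junctions in place, and ESRP1 is an RNA-binding protein that sets the epithelial form of many spliced transcripts.

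Most of these genes were at or under the detection limit in every condition. Totals ran from 23143202 to 31459990 counts per sample (median 28605451), so 3 counts in 1 sample stood for 0.095 to 0.13 CPM (counts of a gene per 1e6 counts of its library). Replicates correlated at r = 0.976 to 0.991 across genes. BEAS-2B carried the simple keratin genes KRT8 (group means of 150 to 616 CPM) and KRT18 (195 to 353 CPM), whereas the epithelial surface genes CDH1 and EPCAM stayed under 1 CPM in every sample. KRT7, a keratin of simple epithelia, went from 1315 CPM in controls at 24 h to 18.0 at 15 weeks and 1.93 at 30 weeks, and it also fell in exposed cells. In these bulk samples, fewer cells of a type and less RNA per cell cannot be told apart.

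**Figure D1:**
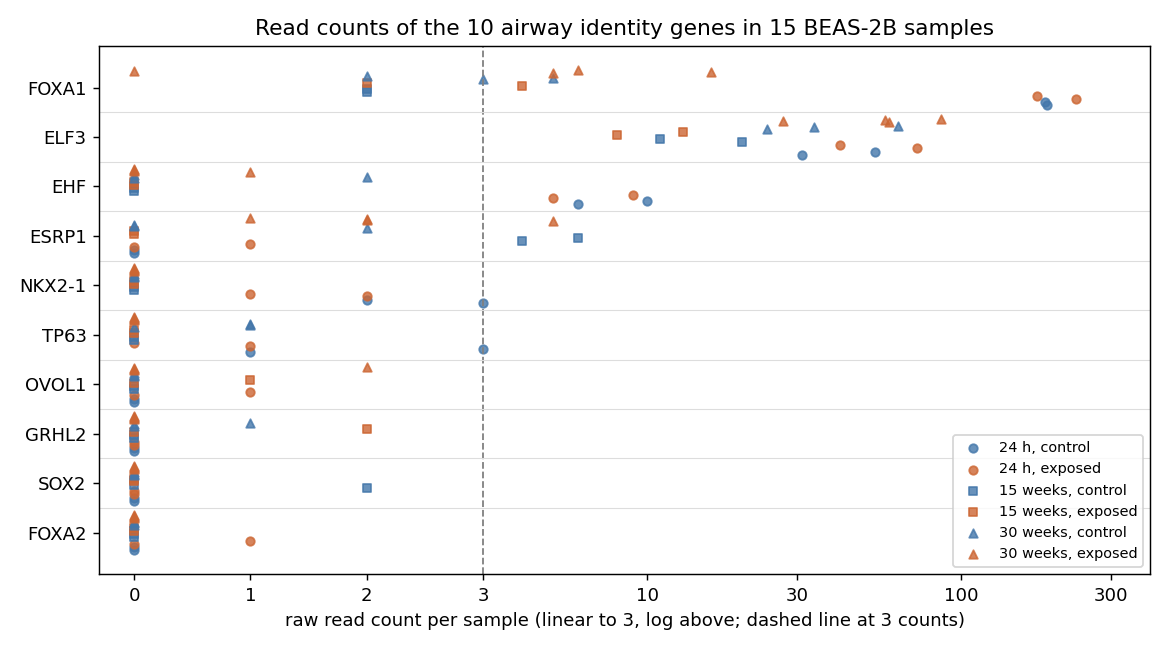
Raw read counts (x axis, linear up to 3 and logarithmic above) of the 10 genes (rows) in each of the 15 samples, by time (marker shape) and exposure (colour), with a dashed line at 3 counts. FOXA1 at 24 h, with 174 to 232 counts, stands apart, ELF3 has at least 8 counts in every sample, and the other 8 genes have at most 10.

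The filter on low counts removed 8 of the 10 genes, and FOXA1 and ELF3 passed it. FOXA1 passed only through its 24 h samples, so it had to differ from the later times in some way, and the number of genes that passed carries no information about identity genes in general.

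TP63, the master factor of basal cells, had 1 and 3 counts in the 24 h controls and 1 and 0 in the exposed samples at 24 h. It had 0 in all 4 samples at 15 weeks, 0, 1 and 1 in the 30-week controls, and 0 in all 4 exposed samples at 30 weeks. No sample went above the 3-count limit. SOX2, which acts with TP63 in basal cells, had 2 counts in 1 control at 15 weeks and 0 in the other 14 samples. The 0 counts of the 4 exposed samples at 30 weeks, pooled, allow a SOX2 level of up to 0.0262 CPM, and intervals and limits of this kind cover counting error only.

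NKX2-1, the lung lineage factor, had 3 and 2 counts in the 24 h controls and 2 and 1 in the exposed samples at 24 h, and 0 in all 11 samples at 15 and 30 weeks. In a fit without the filter (23264 genes), its step from 24 h to 15 weeks was not called in control cells (edgeR, Benjamini-Hochberg adjusted p = 0.233) or in exposed cells (adjusted p = 0.333). At 0.0869 CPM in the 24 h controls it lay under the 3-count limit of a single sample. FOXA2, the close relative of FOXA1, had 1 count, in an exposed sample at 24 h, and 0 in the other 14.

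GRHL2, which keeps junction genes on, had 2 counts in an exposed sample at 15 weeks, 1 in a 30-week control and 0 in the other 13 samples. OVOL1 had 1 count in an exposed sample at 24 h, 1 in an exposed sample at 15 weeks, 2 in an exposed sample at 30 weeks and 0 in every control. These values cannot be told from 0 at this depth, and no difference between control and exposed cells was detectable for either gene.

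FOXA1 had the highest level of the set at 24 h, and it was nearly lost by 15 weeks in control and exposed cells alike. FOXA1 lies on the minus strand of chromosome 14 (GRCh38, chr14:37589552-37595249). It had 187 and 185 counts in the 24 h controls and 232 and 174 in the exposed samples. At 15 weeks it had 2 and 2 counts in controls and 4 and 2 in exposed samples. At 30 weeks the 3 controls had 3, 5 and 2 counts and the 4 exposed samples 5, 16, 0 and 6. Every 24 h sample lay above every later sample, and the lowest of them had 174 counts against at most 16.

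After TMM scaling, which corrects for library composition, the mean FOXA1 level at 24 h was 6.47 ± 0.00302 CPM in the controls (SD, n = 2) and 8.25 ± 2.29 in the exposed samples (n = 2). The level was 0.0611 ± 0.00296 CPM (n = 2) in controls and 0.0945 ± 0.0419 (n = 2) in exposed cells at 15 weeks, both at or near the 3-count limit. At 30 weeks it was 0.127 ± 0.0545 CPM (n = 3) in controls and 0.238 ± 0.234 (n = 4) in exposed cells. The 2 groups at 24 h thus came first, and the order among the 4 later groups was exposed at 30 weeks, control at 30 weeks, exposed at 15 weeks and control at 15 weeks, with overlapping ranges between neighbours except at 15 weeks, where both groups had 2 to 4 counts per sample and an order cannot be read.

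From 24 h to 15 weeks, within 1 batch, the fitted log2 fold change of FOXA1 was -6.63 (SE 0.709) in control cells (edgeR, Benjamini-Hochberg adjusted p = 4.907e-06). In exposed cells it was -6.37 (SE 0.667, edgeR adjusted p = 3.447e-06). FOXA1 passed the filter only through its 24 h samples, so some fall was fixed in advance and these p-values are no independent test of it. The pooled counts give a 98.0-fold higher level at 24 h than at 15 weeks in controls (95% counting interval 37.9 to 362). In exposed cells this ratio was 78.0 (95% counting interval 35.5 to 214). Of all 16740 genes tested, 12.2% were called lower at 15 weeks in control cells and 12.5% in exposed cells, beside FOXA1 in controls and both FOXA1 and ELF3 in exposed cells, the 2 of the 10 identity genes that were tested.

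FOXA1 was still low at 30 weeks, with a log2 fold change from 24 h of -5.63 (SE 0.562) in control cells (edgeR adjusted p = 5.511e-07) and -5.09 (SE 0.453) in exposed cells (edgeR adjusted p = 2.159e-07). These comparisons cross the batches, and the filter limits their p-values for FOXA1 in the same way. They called 29.2% of all genes lower in controls and 27.2% in exposed cells, beside FOXA1 in each. Between 15 and 30 weeks FOXA1 was not called in control cells (log2 1.00, SE 1.10, edgeR adjusted p = 0.470) or in exposed cells (log2 1.29, SE 0.851, edgeR adjusted p = 0.232). Without exposed replicate 3 at 30 weeks, which had 0 counts, the rise in exposed cells was called (log2 1.70, edgeR adjusted p = 0.0425).

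The promoters of FOXA1 and ELF3 are shown because these are the 2 genes whose levels could be followed, and they differ in CpG content. Each is the 250 bases before the RefSeq start (GRCh38.p14), written 5′ to 3′ on the strand of the gene, with the E2-box, the hexamer CACCTG or its reverse complement CAGGTG that the EMT repressors of the ZEB and SNAI families can bind, in capitals. FOXA1 is at chr14:37595250-37595499 on the minus strand and ELF3 at chr1:202010337-202010586 on the plus strand.
FOXA1: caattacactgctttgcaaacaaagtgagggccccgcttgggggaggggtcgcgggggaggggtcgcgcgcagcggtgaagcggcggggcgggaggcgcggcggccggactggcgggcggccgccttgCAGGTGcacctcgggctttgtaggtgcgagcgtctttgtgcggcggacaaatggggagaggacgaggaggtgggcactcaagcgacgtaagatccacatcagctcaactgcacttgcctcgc
ELF3: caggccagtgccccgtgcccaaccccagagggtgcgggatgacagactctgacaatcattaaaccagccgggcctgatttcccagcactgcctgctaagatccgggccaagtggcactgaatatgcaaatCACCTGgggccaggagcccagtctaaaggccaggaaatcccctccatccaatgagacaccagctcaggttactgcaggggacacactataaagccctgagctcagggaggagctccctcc
The FOXA1 window held 26 CpG dinucleotides, an observed-to-expected ratio of 0.98 that is above that of 89.7% of all promoters. The ELF3 window held 4, a ratio of 0.19 that is above that of 21.5%. Each held 1 E2-box, at bases 117 to 122 before the start in FOXA1 and 115 to 120 in ELF3, as did 17.5% of the 35114 promoter windows of this length. Neither window held the forkhead letters TGTTTAC or the ETS letters AGGAAG on either strand, which 3.0% and 28.7% of windows hold. A match is a description of the sequence only.

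The neighbour of FOXA1 fell with it. TTC6, a gene of the tetratricopeptide repeat family that starts 379 bases from FOXA1 and runs the other way (chr14:37595629-37842717), was picked after its values were seen. TTC6 had 42 and 34 counts in the 24 h controls and 37 and 29 in the exposed samples at 24 h. At 15 weeks it had 2 and 1 counts in controls and 0 and 0 in exposed samples. At 30 weeks the controls had 0, 1 and 0 counts and the exposed samples 1, 6, 0 and 0. As for FOXA1, no later sample reached the 24 h samples.

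TTC6 was called lower at 15 weeks in control cells (edgeR adjusted p = 0.001376) and in exposed cells (edgeR adjusted p = 0.0003823). Like FOXA1, it passed the filter on low counts only through its 24 h samples, and it was picked for its values. These calls are therefore a description and no independent test. Its pooled counts were 26.7-fold higher at 24 h in controls (95% counting interval 8.79 to 132), and at least 25.4-fold higher in exposed cells, counted against a floor of 3 counts over the group (the 95% counting interval starts at 20.1). Within 2 Mb of FOXA1, 15 other genes were tested, TTC6 among them. In control cells 9 of the 15 were called lower and 0 higher, with a median log2 fold change of -0.74, and in exposed cells 5 were called lower and 1 higher, with a median of -0.46. Over all genes, 12.2% were called lower and 12.7% higher in control cells, and 12.5% and 13.5% in exposed cells.

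Chromosome 14 as a whole was lower at 15 weeks. The median log2 fold change of its 508 tested genes was -0.67 in control cells and -0.63 in exposed cells, the lowest of the 22 autosomes in both, against -0.02 and 0.00 for all tested genes. On this chromosome 252 genes were called lower and 14 higher in controls, and 240 and 14 in exposed cells. Over all genes, 12.2% were called lower in control cells and 12.5% in exposed cells. The tested genes near FOXA1 are among these 508. NKX2-1 lies on the same chromosome, 1073 kb from FOXA1. FOXA1 fell far more than the chromosome, and the part of the chromosome-wide shift in its fall was not tested.

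**Figure D2:**
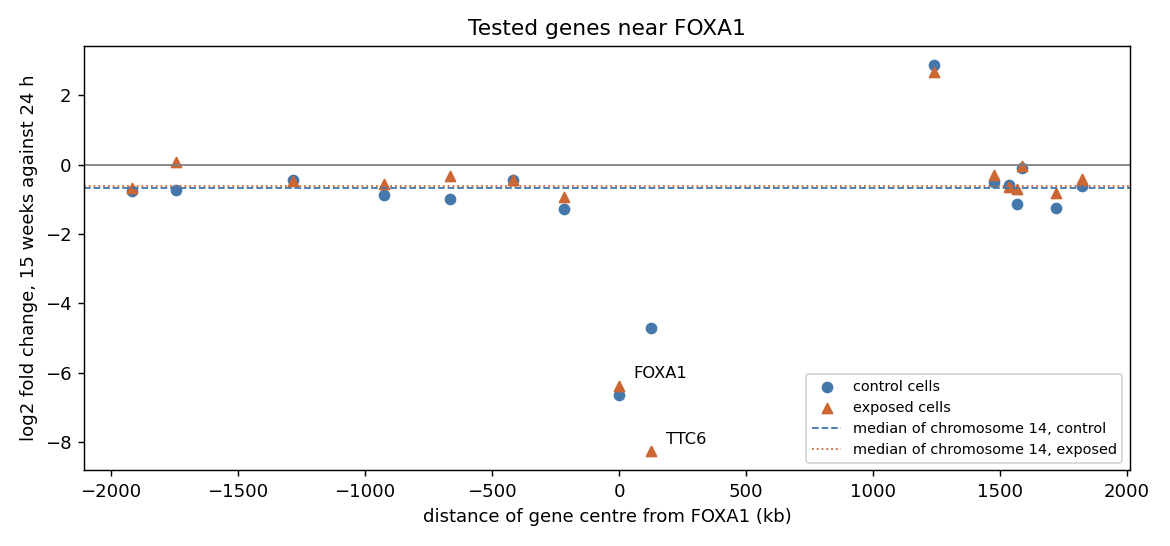
Log2 fold change at 15 weeks against 24 h (y axis) of the tested genes within 2 Mb of FOXA1, by the distance of their centres from FOXA1 in kb (x axis), in control (circles) and exposed (triangles) cells, with dashed and dotted lines at the chromosome 14 medians of -0.67 and -0.63. FOXA1 and TTC6 lie below -4 in both arms, and the other genes lie above -2.

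ELF3, an ETS factor of differentiating epithelia, was low but present in every sample, and it was lowest at 15 weeks. ELF3 lies on chromosome 1 (chr1:202010587-202017183). It had 31 and 53 counts in the 24 h controls and 72 and 41 in the exposed samples at 24 h. At 15 weeks it had 20 and 11 counts in controls and 8 and 13 in exposed samples. At 30 weeks the controls had 24, 34 and 63 counts and the exposed samples 59, 27, 57 and 86. All 4 samples at 15 weeks lay below all 11 others.

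The mean CPM of ELF3 at 24 h was 1.46 ± 0.552 in controls (SD, n = 2) and 2.31 ± 1.06 in exposed cells (n = 2). It was at 0.478 ± 0.217 CPM (n = 2) and 0.335 ± 0.123 (n = 2) at 15 weeks. At 30 weeks it was at 1.51 ± 0.657 CPM (n = 3) and 2.02 ± 0.853 (n = 4). From high to low the order was exposed at 24 h, exposed at 30 weeks, control at 30 weeks, control at 24 h, control at 15 weeks and exposed at 15 weeks, and the 1 pair of neighbours whose ranges did not overlap was control at 24 h (1.07 to 1.85 CPM) and control at 15 weeks (0.325 to 0.632).

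From 24 h to 15 weeks ELF3 fell in exposed cells (log2 fold change -2.77, SE 0.603, edgeR adjusted p = 0.002896). In control cells its log2 fold change was -1.61 (SE 0.581) and did not pass (edgeR adjusted p = 0.0534, with a range of 0.0167 to 0.309 over 26 alternatives). It passed in 7 of these, among them the fits without control replicate 3, exposed replicate 2 or exposed replicate 4 at 30 weeks (edgeR adjusted p = 0.0438, 0.0167 and 0.0474), which are not in this comparison but share its estimate of the spread. The fall was not shown to differ between the arms (difference in log2 -1.16, SE 0.854, edgeR adjusted p = 1.00).

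From 15 to 30 weeks ELF3 rose in exposed cells (log2 fold change 2.58, SE 0.555, edgeR adjusted p = 0.001432) and in control cells (1.66, SE 0.545, edgeR adjusted p = 0.0183). The call in control cells was lost without control replicate 2 at 15 weeks (log2 1.26, edgeR adjusted p = 0.161) or control replicate 3 at 30 weeks (1.24, adjusted p = 0.0851). In these comparisons 25.6% of all genes were called higher in control cells and 23.3% in exposed cells, beside ELF3 in each. Against 24 h, ELF3 at 30 weeks had a log2 fold change of 0.05 (SE 0.479) in controls and -0.19 (SE 0.433) in exposed cells, neither called (edgeR adjusted p = 0.939 and 0.736).

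**Figure D3:**
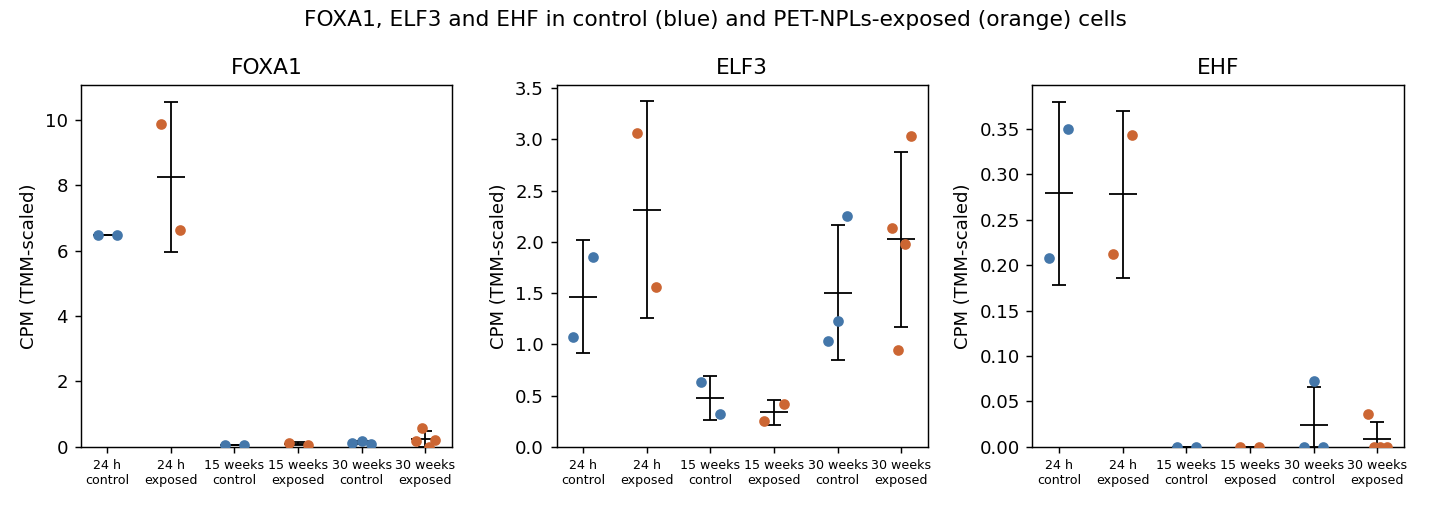
TMM-scaled CPM (y axes, each from 0) of FOXA1, ELF3 and EHF in the 6 conditions, with a point per sample and the mean ± SD in black. FOXA1 and EHF are present at 24 h and at or near 0 later, whereas ELF3 has its lowest values, 0.248 to 0.632 CPM, at 15 weeks and 0.946 to 3.06 at the other times.

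EHF, an epithelial ETS factor of the same subfamily as ELF3, had a trace level at 24 h. It was not detected at 15 weeks, where the pooled 0 counts allow up to 0.0510 CPM in controls and 0.0531 in exposed cells. EHF had 6 and 10 counts in the 24 h controls and 5 and 9 in the exposed samples at 24 h. It had 0 counts in all 4 samples at 15 weeks, 0, 2 and 0 in the 30-week controls, and 1, 0, 0 and 0 in the exposed samples at 30 weeks. All 4 samples at 24 h lay above all 11 later samples. Its mean level at 24 h was 0.279 ± 0.101 CPM in controls (SD, n = 2) and 0.278 ± 0.0922 in exposed cells (n = 2).

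Against a floor of 3 counts over the group, EHF was at least 5.62-fold higher at 24 h than at 15 weeks in control cells and at least 5.38-fold higher in exposed cells. The exact 95% counting interval of the ratio, which also counts the error of the 24 h value, starts lower, at 4.06 and 3.82. It did not pass the filter on low counts. In the fit without a filter its fall to 15 weeks was called in control cells (edgeR adjusted p = 0.0239) and in exposed cells (edgeR adjusted p = 0.0263). At 30 weeks it was called lower than at 24 h in both arms (edgeR adjusted p = 0.0375 and 0.00688). The share of all 23264 genes called in this fit was not counted, so these calls have no background beside them. The pooled ratio of 24 h to 30 weeks was 13.2 in controls, with 16 against 2 counts (95% counting interval 3.11 to 119).

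ESRP1 had its highest counts in the 15-week controls, with 4 and 6, and 0 and 0 in the exposed samples of that time. At 24 h it had 0 and 0 counts in controls and 0 and 1 in exposed samples. At 30 weeks the controls had 2, 0 and 0 counts and the exposed samples 5, 2, 2 and 1. The 2 arms did not overlap at 15 weeks, and the direction was the other way at 30 weeks, where they did. The 10 pooled counts in controls at 15 weeks are at least 3.20-fold above a floor of 3 counts over the exposed group, and the 95% counting interval of the ratio starts at 2.15. In the fit without a filter the difference at 15 weeks did not pass (unadjusted p = 0.0198, edgeR adjusted p = 1.00), nor did its difference from the one at 30 weeks (unadjusted p = 0.0109, edgeR adjusted p = 0.174). At 30 weeks, an exact permutation test over samples could not have passed for a single gene, since the smallest two-sided p that its 35 arrangements allow is 0.0571.

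None of the 10 genes was called different between PET-NPLs-exposed and control cells at any time. At 24 h and at 15 weeks 0% of all genes tested were called by edgeR, although 277 and 823 genes had an unadjusted p under 0.05. At 30 weeks 23.7% of all genes tested were called, and neither FOXA1 nor ELF3, the 2 of the 10 that were tested. FOXA1 had a log2 fold change of 0.35 (SE 0.426) at 24 h, 0.61 (SE 1.22) at 15 weeks and 0.89 (SE 0.733, edgeR adjusted p = 0.421) at 30 weeks. At 24 h the exposed samples, at 6.63 and 9.87 CPM, lay above the controls, at 6.47 and 6.48, although their raw counts overlapped. At 15 weeks all 4 samples had 2 to 4 counts. The 30-week samples overlapped, and 1 exposed sample with 16 counts held more than any other.

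ELF3 had a log2 fold change with exposure of 0.65 (SE 0.513) at 24 h, -0.50 (SE 0.682) at 15 weeks and 0.42 (SE 0.395, edgeR adjusted p = 0.492) at 30 weeks. The control and exposed samples overlapped at each time. The exposure effect was not shown to differ between 15 and 30 weeks for FOXA1 (difference in log2 0.28, SE 1.59, edgeR adjusted p = 0.970) or ELF3 (0.92, SE 0.789, edgeR adjusted p = 0.657), in a comparison that called 4.74% of all genes. Between 24 h and 15 weeks 0% of all genes were called for such a difference (644 at an unadjusted p under 0.05). Within 2 standard errors, the FOXA1 values leave room for a change of more than 2-fold in either direction at 15 weeks and upward at 24 h and 30 weeks.

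**Figure D4:**
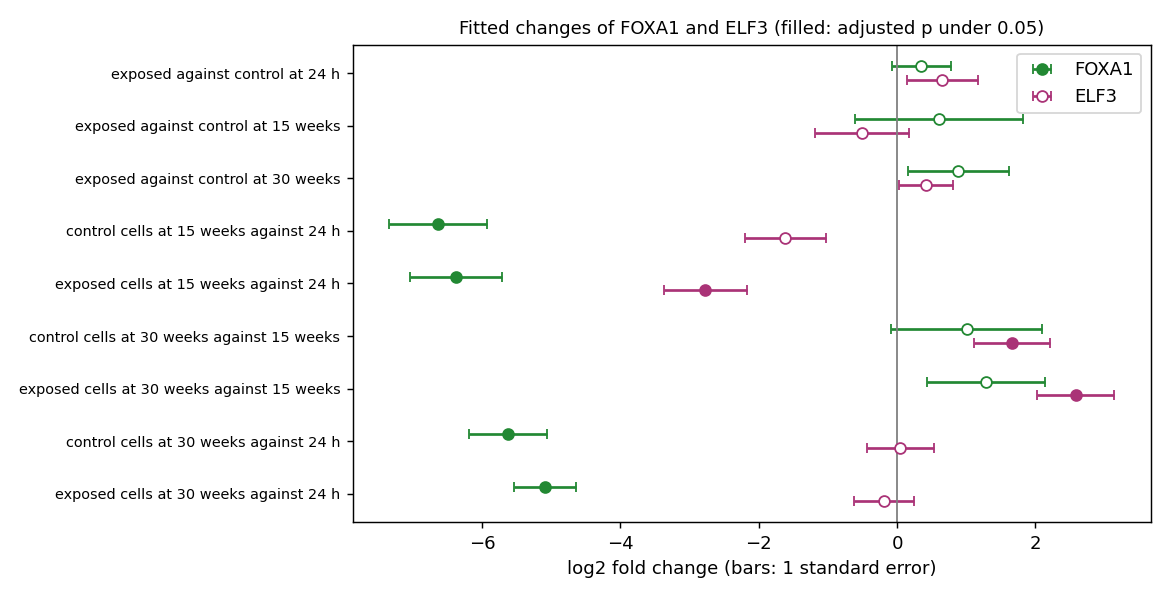
Fitted log2 fold changes (x axis, bars of 1 standard error) of FOXA1 and ELF3 in 9 comparisons (rows), filled where the Benjamini-Hochberg adjusted p is under 0.05. The 3 exposure comparisons at the top are all open, and FOXA1 is filled at -6.63 and -6.37 (15 weeks) and at -5.63 and -5.09 (30 weeks against 24 h).

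Scaled to transcript length, FOXA1 led at 24 h and ELF3 afterwards. In the 24 h controls FOXA1 was at 1.47 CPM per kb of exon, ELF3 at 0.204 and EHF at 0.0421. In exposed cells at 30 weeks ELF3 was at 0.282 CPM per kb and FOXA1 at 0.054. The genes whose log2 CPM ran most like that of FOXA1 over the 15 samples, among 13448 genes with a mean of at least 1 CPM, were VEGFC (Pearson's r = 0.968), LPAR1 (0.968) and TMED10 (0.967). The 15 samples share their batches and times, so these values are a description, and the Spearman values were lower (0.764, 0.693 and 0.793). LPAR1, a receptor for lysophosphatidic acid, went from 128 CPM in controls at 24 h to 10.4 at 15 weeks and 11.6 at 30 weeks. The genes most like ELF3 were LINC00847 (r = 0.944), TM9SF1 (0.917) and FBXO32 (0.915).

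The list called relatives here holds paralogues of the 10 genes, other SOX and ETS family factors, and KLF4 and KLF5, which belong to another family. These genes were easier to detect, and several moved between 24 h and 15 weeks. Of 18 relatives 12 were tested, with 1 called higher (ETV5) and 4 lower (ESRP2, KLF5, SOX4 and SOX9) in control cells, and 2 higher and 5 lower in exposed cells. Their median log2 fold changes were 0.17 and 0.29, beside -0.02 and 0.00 for all genes. Over all genes, 12.7% were called higher and 12.2% lower in control cells, and 13.5% and 12.5% in exposed cells. ESRP2, the paralogue of ESRP1 in epithelial splicing, was named after its values were seen. ESRP2 went from 12.5 and 13.7 CPM in the 24 h controls to 0.916 and 1.86 at 15 weeks (log2 fold change -3.23, SE 0.396, edgeR adjusted p = 2.023e-05), and in exposed cells its log2 fold change was -3.83 (SE 0.414, edgeR adjusted p = 4.844e-06). SOX9, a factor of airway progenitors, went from 15.0 to 2.72 CPM in controls.

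The epithelial and basal lists, which hold known targets of these factors among other genes, moved in both directions, with more genes called lower than higher. Over all genes, 12.2% were called lower and 12.7% higher at 15 weeks in control cells, and 12.5% and 13.5% in exposed cells. Of 24 epithelial surface and junction genes, 20 were tested, and at 15 weeks against 24 h 8 were called lower and 2 higher in control cells (median log2 -0.52) and 7 lower and 4 higher in exposed cells (median -0.50). CDH3, the P-cadherin gene, went from 18.3 to 1.34 CPM in controls and DSP, the desmosome protein desmoplakin, from 87.1 to 25.7. Of 21 basal cell genes and TP63 targets, 17 were tested, and 9 were called lower and 1 higher in control cells (median -0.90) and 11 lower and 1 higher in exposed cells (median -1.95). LAMA3, a laminin chain of the basement membrane, went from 90.9 to 52.2 CPM in controls.

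Of 24 alveolar, secretory and mucous genes only 5 were tested, and 0 were called in either arm at 15 weeks. Between exposed and control cells at 30 weeks 3 were called, beside 23.7% of all genes. Of 12 ciliated cell genes 9 were tested, and 1 was called higher in control cells and 2 in exposed cells at 15 weeks. Beside the same shares over all genes (12.7% higher and 12.2% lower in controls), of 9 repressors of epithelial genes 8 were tested, and 3 were called higher (TCF4, TWIST2 and ZEB2) and 2 lower (SNAI2 and ZEB1) at 15 weeks in each arm. Of 10 splicing regulators, all tested, ESRP2 was the 1 called lower at 15 weeks in each arm, and MBNL2 was called higher in exposed cells.

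**Figure D5:**
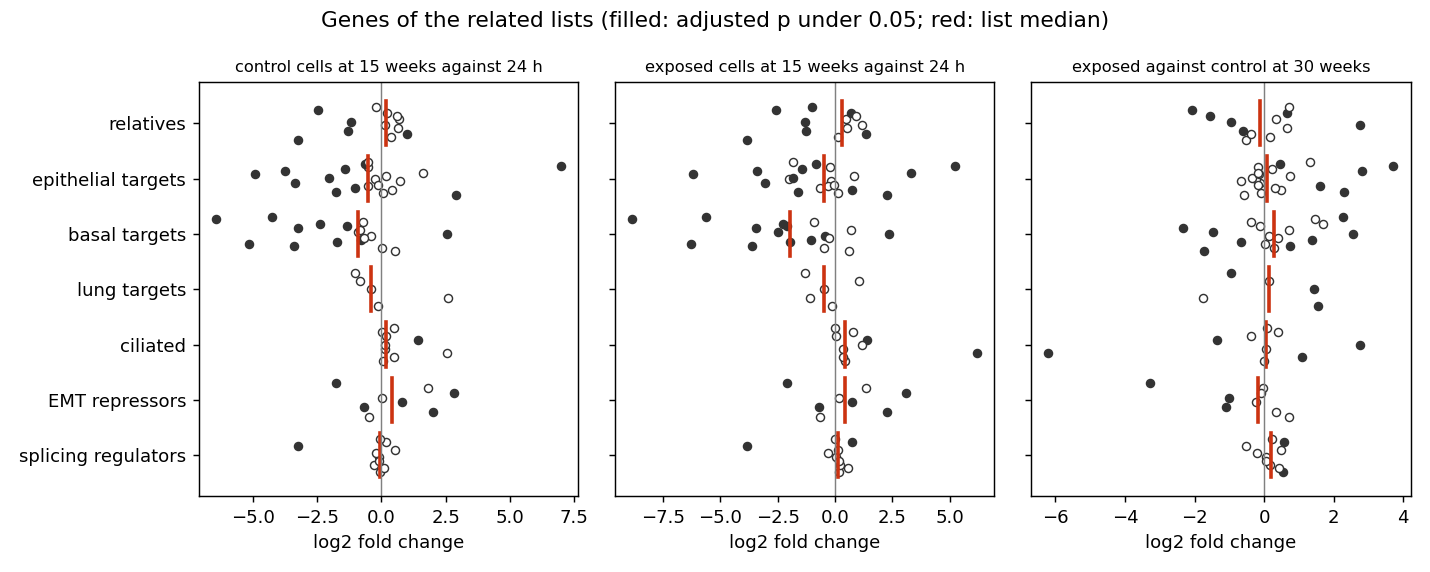
Log2 fold changes (x axes) of the tested genes of the 7 related lists (rows) at 15 weeks against 24 h in control and in exposed cells and in exposed against control cells at 30 weeks, filled where the adjusted p is under 0.05, with the list median in red. The medians of the basal list are -0.90, -1.95 and 0.29.

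At 30 weeks, where none of the 10 genes was called by exposure, genes of these lists were. Over all genes 12.0% were called higher and 11.7% lower in exposed cells. Of the 12 tested relatives 2 were higher (GRHL1 and TP73) and 4 lower (KLF5, SOX4, SOX9 and SOX15). Of the 20 epithelial genes 5 were higher (CDH3, DSP, MAL2, PKP3 and SPINT1) and 0 lower, and of the 17 basal genes 4 were higher and 4 lower. SNAI2, TWIST1 and ZEB1 were lower, and 0 of the 8 tested repressors were higher. SNAI2, a repressor of CDH1, was at 26.1 CPM in controls and 2.70 in exposed cells (log2 fold change -3.27, SE 0.179, edgeR adjusted p = 3.409e-09). CDH1 itself was not called, at 0.620 CPM in controls and 0.565 in exposed cells. Of the 9 ciliated genes 2 were higher and 2 lower, and of the 10 splicing regulators 2 were higher (CELF1 and MBNL2).

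Epithelial markers also differed by exposure at 30 weeks. The summed level of KRT7, KRT8, KRT18, KRT19, CDH1 and EPCAM was 314 to 411 CPM in controls and 879.5 to 1097 in exposed samples. KRT8, KRT18 and KRT19 were called higher in exposed cells, and 0 of the 6 lower, beside 12.0% of all genes called higher and 11.7% lower. Markers of other cell types moved with some of these groups. The summed level of 14 skeletal muscle markers was 123 to 164 CPM in the 30-week controls and 3.62 to 10.9 in the other 12 samples, with 6 of the 14 at 3 counts or fewer in each of those controls. Of the 6 that were tested, 5 were called lower in exposed cells at 30 weeks. The sum of 12 fibroblast markers was 1334 to 2480 CPM, with its highest values in the 30-week controls. Of the 10 tested, 2 were called higher (COL1A2 and POSTN) and 2 lower (COL1A1 and LUM) in exposed cells at 30 weeks. The sum of 6 endothelial markers was 0.602 to 1.01 CPM in the 30-week controls, 2.25 to 3.12 in the exposed samples of that time and 0.589 to 1.46 earlier, and the 3 that were tested (CDH5, KDR and VWF) were called higher in exposed cells at 30 weeks, with 3 of the 6 at 3 counts or fewer in each of those samples. The sum of 6 leukocyte markers was 1.42 to 2.29 CPM in the 30-week controls, 4.07 to 5.95 in the exposed samples of that time and 2.51 to 7.36 earlier, and CD14 was called higher in exposed cells at 30 weeks. A group of 6 abundant small noncoding RNAs took 22.3 to 31.03% of counts in the 30-week controls and 17.0 to 21.5% in the exposed samples of that time, against 9.75 to 12.92% at 24 h and 15 weeks. The part of these in the values of FOXA1 and ELF3 at 30 weeks, and so in their changes from earlier times, was not tested beyond the fit without the 6 RNAs, which changed no call of FOXA1 or ELF3.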

How the data were processed

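RNA-seq of BEAS-2B cells was analysed in 15 samples. Reads were trimmed by the authors with Rfastp and aligned to GRCh38, and Rsubread gave the number of reads in each gene. These deposited raw counts, which carry no normalization, were used here. Strand setting and treatment of reads that match several places are not given in the sources used here. The submitters' processing notes also name bcl2fastq, featureCounts and hg38. Of 28395 Entrez numbers, 27745 matched a RefSeq symbol.

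Counts were fitted in R 4.3.3 with edgeR 4.0.16 (filterByExpr, 16740 genes kept, TMM scaling, quasi-likelihood test, 1 mean per condition over all 15 samples), with Benjamini-Hochberg adjustment of p over the 16740 genes (threshold 0.05). CPM used TMM-scaled totals, log2 CPM a prior count of 2, and CPM per kb the exon union of the GENCODE annotation. Counting intervals are exact at 95%, and the floor is 3 counts. The method was tested on simulated data. The methods of the study use limma-voom with sva, run here as an alternative (limma 3.58.1, sva 3.50.0) beside DESeq2 1.42.0, other scalings and filters, the replicate number as a block and each replicate left out. Comparisons with 30 weeks against 24 h and the difference between 15 weeks and 24 h were added after seeing the data. Depth was 23143202 to 31459990 counts per sample.

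The 10 genes and the gene lists were chosen with earlier results of these data known. All 10 are named, and of each list the called genes at 30 weeks by exposure with at least 1 CPM, up to 4 by size. ESRP2, KRT7, CDH1, EPCAM, TTC6 and the other list genes named in counts were chosen after their values were seen. The lists were relatives, epithelial, basal, lung, ciliated, repressor and splicing genes, and epithelial, fibroblast, muscle, endothelial and leukocyte markers. An item of the basal list is not reported here and was left out of its counts after the results had been seen.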

Additional observations from a re-analysis of the deposited data

Results flagged for a closer look

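For FOXA1 and ELF3, the exposure effect was not shown to differ between 30 and 15 weeks. No exposed sample at 30 weeks lay apart for them by Dixon's critical value, a weak check with 4 samples. FOXA1 had 16 counts in exposed replicate 2 and 0 to 6 in the rest. Over tested genes, the mean chi-square per gene was 86.4 to 132 in exposed pairs with replicate 2 and 16 to 35.5 in the others. It was 74.7 to 105 between 30-week controls and 9.02 to 15.2 between replicates at the earlier times. Genes at 3 counts or fewer in all 4 exposed samples at 30 weeks, EHF and OVOL1 among them, were not looked at for samples that lie apart. Of the related and marker lists, only genes named for being called by exposure at 30 weeks were looked at here. The differences below rest on the same 30-week values, so they are no separate support. KRT15, KRT17 and POSTN, which were not looked at, were called for this difference too, and 4.74% of all genes were. Among the genes looked at, the log2 exposure effect differed between 30 and 15 weeks (edgeR, Benjamini-Hochberg adjusted over all genes, difference as 30 minus 15 weeks, which also crosses the batches). It was larger at 30 weeks for the relative TP73 by 2.09, for the junction genes CDH3 by 2.48 and DSP by 2.11, for the basal gene LAMA3 by 1.46, for the keratins KRT8 by 1.93 and KRT19 by 2.39, for COL1A2 by 4.86 and for CD14 by 2.25.

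The difference was negative for SOX9 (-1.70), SOX15 (-1.91), ITGB4 (-2.23), AQP3 (-1.83), TPPP3 (-7.54), SNAI2 (-2.92), ZEB1 (-1.07), TWIST1 (-1.21) and MYOD1 (-6.11). In TPPP3 and MYOD1 the 30-week controls were the high group, at 12.9 to 15.0 and 65.8 to 106 CPM. The same held for SOX9, SOX15 and AQP3, with control means of 26.5, 3.94 and 12.4 CPM. From 15 to 30 weeks, mean DSP went from 25.7 to 4.89 CPM in controls and from 29.1 to 24.1 in exposed cells. Mean LAMA3 went from 52.2 to 16.5 CPM in controls and from 49.7 to 43.2 in exposed cells. CDH3 fell in controls, from 1.34 to 0.616 CPM, and rose in exposed cells, from 1.69 to 4.45. TP73 moved the same ways.

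Among the 4 exposed samples at 30 weeks, 1 lay apart for LAMA3 (gap of 0.889 of the range, from 31.1 to 48.5 CPM) and 1 for CHRNA1 (0.847), above Dixon's critical value for 4 samples. Of 33 such groups looked at, chance flags about 1 in 20.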

How the results depend on the processing

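Of 576 fold changes of FOXA1 and ELF3 under alternatives, 548 kept their direction and side of the threshold, 5 lost and 8 gained a call, and 15 changed sign. The falls of FOXA1 from 24 h were called in every alternative that could be fitted. In control cells at 15 weeks against 24 h, 1 of the 10 genes was called, against 2 with DESeq2, with limma-voom with 2 surrogate variables and with the replicate block, 3 with no filter, and 1 to 2 leaving out 1 sample. In controls from 15 to 30 weeks it was 1, against 0 with 2 surrogate variables, scaling by library size only or an adjusted p under 0.01, and 0 to 1 leaving out 1 sample. In exposed cells from 15 to 30 weeks it was 1 to 2. From 24 h to 30 weeks 1 was called in each arm, and 2 with no filter. Of the genes of the 7 related lists, markers of cell types not counted, 30 differed by exposure at 30 weeks, and 19 at an adjusted p under 0.01.

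Signs changed only for values that were not called. The exposure effect of ELF3 at 15 weeks ran from -0.93 to 0.04 (log2) leaving out 1 sample. The difference of the FOXA1 effect between 30 and 15 weeks was -0.41 with limma-voom, -0.26 with 2 surrogate variables and -0.57 to 0.80 leaving out 1 sample, and between 15 weeks and 24 h it was -0.15 with 2 surrogate variables and -0.27 to 0.63 leaving out 1 sample. ELF3 at 30 weeks against 24 h in controls was -0.19 by library size, -0.27 with the replicate block and -0.36 to 0.49 leaving out 1 sample, and -0.60 to 0.37 in exposed cells. The cause was not tested.

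The deviations of samples with the same replicate number from their group means correlated at -0.12 to 0.30. These values cannot decide whether the numbers pair the samples. With 2 samples per group at 24 h and 15 weeks, both numbers give the same value (-0.06 and 0.029), and unlike numbers were not compared. The replicate block moved the control call of ELF3 at 15 weeks (log2 -1.66, edgeR adjusted p = 0.0293) and no other call of FOXA1 or ELF3. A filter of 10 counts in every sample left none of the 10 genes to test. By Spearman's rho 0 of the 3 genes most like FOXA1 and 1 of 3 for ELF3 stayed in the first 3. Depth limits FOXA1 at 15 and 30 weeks and, at every time, the other genes except ELF3.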
